A study of Mus musculus with 12 samples.

Results

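The NRF2 antioxidant response genes examined here were 10 of the 32051 genes in the expression table of mouse Th9 cells, taken by symbol: *Nfe2l2*, *Keap1*, *Nqo1*, *Hmox1*, *Gclc*, *Gclm*, *Txnrd1*, *Srxn1*, *Prdx1* and *Me1*. *Me1* was chosen by its FPKM values in these libraries (higher with EpA, lower when fatostatin was added), so its levels are given as a description with no test, and the other 9 were tested. All members and gene lists were chosen with earlier results of these data known, so counts of calls among them are not free of that choice. Th9 cells are IL-9-producing helper T cells. Naive CD4+ T cells from C57BL/6J spleens, from mice 6 to 8 weeks old, were activated in culture with antibodies to CD3 and CD28 together with IL-4 (10 ng/mL), TGF-β (1 ng/mL) and antibodies that block IL-12 and IFN-γ. All cells received this mixture, and IL-4 and TGF-β were kept on after the initial culture. The 4 groups of 3 libraries each were vehicle (DMSO), EpA (endomelipeptide A, a cyclic peptide from endophytic fungi, 10 μM), fatostatin (an inhibitor of SREBP activation, 5 μM) and the combination EpA+fatostatin, and RNA was taken on day 4. The doses are those the study gives for its cultures with these compounds. The model is an in vitro culture of polyclonal T cells at a single dose and time, and the labels do not say whether replicates were separate mice or separate cultures, so p-values measure only the spread between these libraries, which may be technical.

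NRF2, encoded by *Nfe2l2*, is held at low abundance by KEAP1, an adaptor that hands it to a CUL3 ubiquitin ligase for destruction. Oxidants and electrophiles modify cysteines of KEAP1, NRF2 then accumulates, pairs with small MAF proteins and binds antioxidant response elements in front of genes for glutathione synthesis, thioredoxin recycling, quinone and heme detoxification and NADPH supply. Because this control acts mainly on protein stability, *Nfe2l2* mRNA need not follow NRF2 activity, and neither protein was measured here. Activated T cells make reactive oxygen species and rely on the glutathione and thioredoxin systems while they divide.

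The core letters of the antioxidant response element are shown first because they are what NRF2 target genes are known to share. The members were taken as known genes of this response, so that choice itself favours a higher share of these letters among them. The promoters are RefSeq sequences of the GRCm38.p6 assembly, from 250 bases before to 50 bases after each annotated start, and a gene may have several starts. Of the 10 members 8 matched, with 11 promoters between them, and *Hmox1* and *Gclc* did not. The letters TGACNNNGC, searched on both strands, occurred in 6 of these 11 promoters, 1 in each of 6 genes, and in 12.4% of all 32851 promoters of the same length. Counted by gene, that was 6 of 8 members beside 14% of all 27025 genes. The related AP-1 letters TGANTCA occurred in 3 of the 11 promoters beside 7.81% of all promoters, or in 3 of 8 member genes beside 8.97% of all genes, and in *Prdx1* and *Me1* they overlapped the first motif. No match was found in the windows of *Nqo1* and *Keap1*, which says only that these letters are not there. A match is a description of letters, not a binding site. Each line gives 5′ to 3′ sequence on the gene's strand, with the matched letters in capitals.
Prdx1, chr4:116685456-116685484, plus strand: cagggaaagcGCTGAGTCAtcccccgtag
Me1, chr9:86695902-86695930, minus strand: gatgccgccgTGACTCAGCgcttctcgcg
Txnrd1, chr10:82859104-82859132, plus strand: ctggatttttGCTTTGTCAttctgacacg
Gclm, chr3:122245413-122245441, plus strand: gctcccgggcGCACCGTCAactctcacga
Nfe2l2, chr2:75704885-75704913, minus strand: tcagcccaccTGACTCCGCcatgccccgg
Srxn1, chr2:152105542-152105570, plus strand: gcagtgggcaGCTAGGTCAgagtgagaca
The *Txnrd1* match lies in the promoter of a start inside the gene, 1 of 3 starts listed for it, and not before its first base. The *Srxn1* match begins 28 bases after its annotated start. The *Me1* match begins at -6 relative to the annotated start used here, but lies inside the gene span given below. The *Prdx1* and *Me1* cores hold the AP-1 letters within them. Separate AP-1 matches were found outside the core, 1 in *Prdx1* and 2 in *Srxn1*, and *Txnrd1*, *Gclm* and *Nfe2l2* held none.

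Levels are FPKM (fragments scaled by exon length and library size), and differences are on the scale of log2(FPKM + 0.1) from limma, called at an adjusted p below 0.05 after Benjamini-Hochberg adjustment over the 13733 genes whose mean reached 0.1 FPKM. Total reads on genes, recovered from the FPKM values with exon lengths, were 36019754 to 43656689 per library. The 6 T cell markers were all present, with summed levels of 633 to 640 FPKM in DMSO, 553 to 556 in EpA, 611 to 627 in fatostatin and 523 to 530 in EpA+fatostatin. The 4 Th9 markers summed to 402 to 406, 951 to 985, 405 to 416 and 1142 to 1198 FPKM in the same order. The macrophage and monocyte list was at 1.21 to 2.89 FPKM in all, of which 2 of 6 markers had a mean of at least 0.1 FPKM and *Marco* was at 0 in every library. Over all libraries the summed markers were 5.19 to 8.62 FPKM for B cells, 6.98 to 10.2 for CD8 T cells, 0.452 to 0.656 for dendritic cells, 0.371 to 2.27 for the red blood cell lineage and 0.376 to 1.13 for neutrophils. In bulk RNA, fewer cells of a type and less RNA per cell cannot be told apart.

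The 9 tested members moved in a small range, with 1 exception. With EpA alone 3 of 9 rose and 0 fell, against 27.4% of all tested genes called in either direction, 14.3% higher and 13.1% lower. With fatostatin alone 5 of 9 fell and 0 rose, against 14% of all genes called, 7.69% higher and 6.31% lower. This count was 2 without DMSO replicate 2 or without fatostatin replicate 1, 3 without fatostatin replicate 2, and 3 with only the groups compared in the fit. When fatostatin was added to EpA, 2 of 9 fell and 0 rose, against 16% of all genes called, 9.22% higher and 6.79% lower. When EpA was added to fatostatin, 4 of 9 rose and 0 fell, against 29.5% of all genes called, 16.2% higher and 13.3% lower. The median log2 difference of the 9 was 0.10 with EpA, -0.13 with fatostatin, -0.06 for fatostatin on top of EpA and 0.11 for EpA on top of fatostatin, whereas the median of all genes lay between 0.00 and 0.01 in these 4 comparisons. The comparisons share groups (each of the 4 groups serves in 2), so their counts are not separate evidence. The members were also chosen with earlier results of these data known, so a count beside the share of all genes is a description. *Nqo1* was the only one of the 9 to pass both the test and a 1.5-fold difference, which it did with fatostatin alone and with fatostatin on top of EpA, where 1.86% and 1.99% of all genes did so; in the comparisons that add EpA 0 of 9 did, beside 3.38% of all genes without fatostatin and 3.75% with it. The 2 groups compared did not overlap for 4 of 9 members with EpA (42.4% of all genes), 6 with fatostatin (31.3%), 6 for fatostatin on top of EpA (33.3%) and 4 for EpA on top of fatostatin (41.4%).

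**Figure D1:**
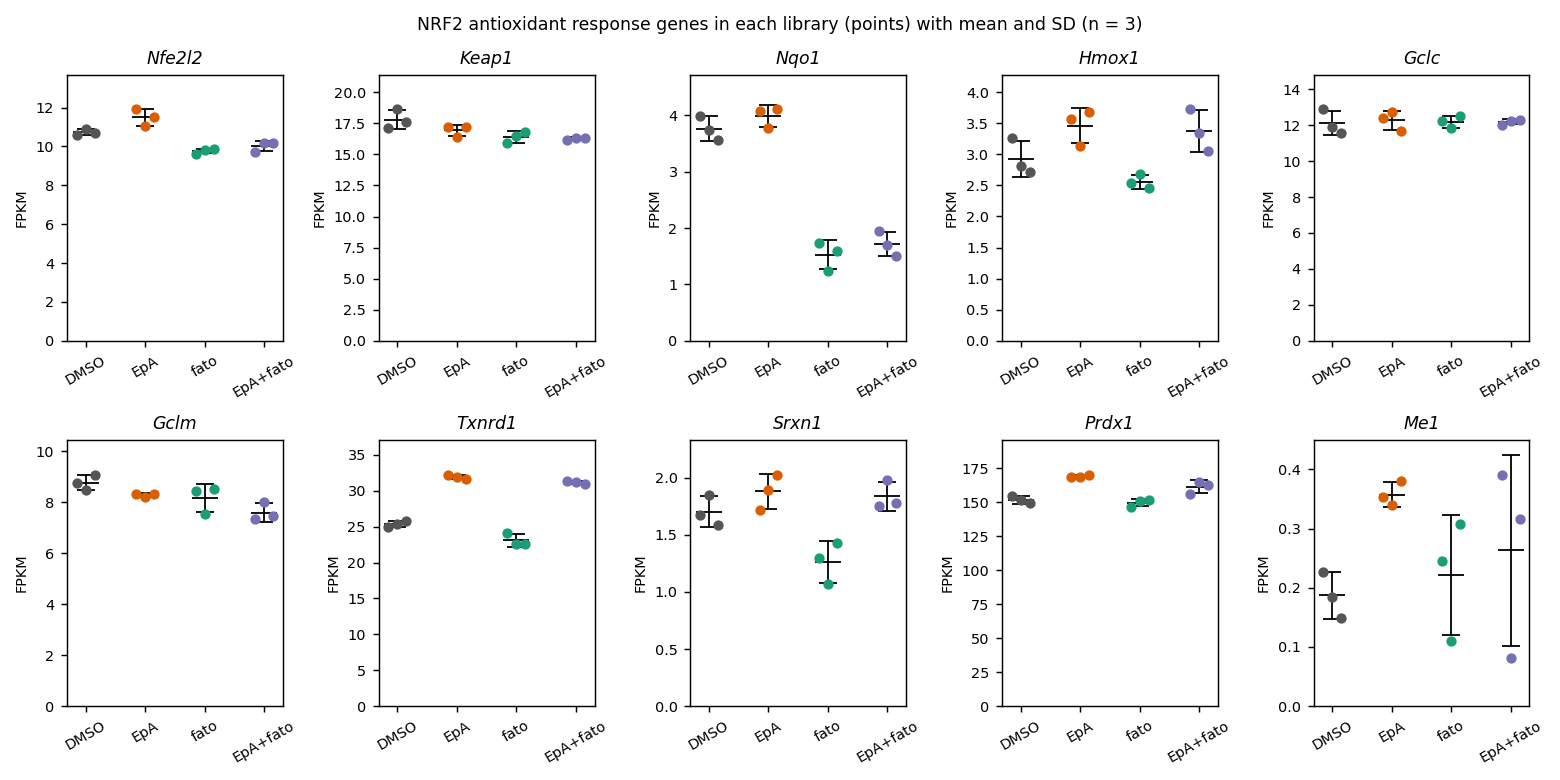
FPKM of each of the 10 genes in the 12 libraries, by treatment group (fato, fatostatin), with 1 panel per gene; points are libraries and bars give the mean and SD of 3. *Txnrd1* and *Prdx1* are higher in the groups with EpA, *Nqo1* is lower in the groups with fatostatin, and the EpA+fatostatin libraries of *Me1* spread from 0.0813 to 0.391 FPKM.

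Among the regulators, *Nfe2l2* (ENSMUSG00000015839, GRCm38 chr2:75675513-75704641, minus strand), which encodes NRF2 itself, was at 10.6, 10.9 and 10.7 FPKM in the DMSO libraries and 11.9, 11.1 and 11.5 in EpA. It was at 9.62, 9.82 and 9.85 FPKM in fatostatin and 9.73, 10.2 and 10.2 in EpA+fatostatin. The EpA libraries were the highest and those with fatostatin the lowest, and only the 2 fatostatin-containing groups overlapped. *Nfe2l2* fell with fatostatin alone (log2 difference -0.13, SE 0.0323, limma adjusted p = 0.0165) and when fatostatin was added to EpA (-0.20, SE 0.0323, limma adjusted p = 0.00174). Its rise with EpA was small (0.10, SE 0.0323, limma adjusted p = 0.0414), and this call was lost in 13 of 22 alternative settings, with adjusted p up to 0.154. The call for fatostatin alone was lost without DMSO replicate 2 (limma adjusted p = 0.0577) or fatostatin replicate 1 (limma adjusted p = 0.0597). For EpA on top of fatostatin the difference was 0.04 (limma adjusted p = 0.438).

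*Keap1* (chr9:21229730-21239361, minus strand), the NRF2 repressor, was at 17.1, 18.6 and 17.6 FPKM in DMSO and 17.2, 16.4 and 17.2 in EpA. The fatostatin libraries were at 15.9, 16.5 and 16.8 FPKM and the EpA+fatostatin libraries at 16.1, 16.3 and 16.3. The means ran from DMSO through EpA and fatostatin to EpA+fatostatin, and each group overlapped the next in that order. *Keap1* fell with fatostatin alone by the test (-0.12, SE 0.0342, limma adjusted p = 0.045), a call lost in 14 of 22 alternatives with adjusted p up to 0.152. The log2 difference was -0.07 with EpA (limma adjusted p = 0.168), -0.06 for fatostatin on top of EpA (limma adjusted p = 0.288) and -0.01 for EpA on top of fatostatin (limma adjusted p = 0.826). An antisense gene, Gm16754, covers 10.9% of the exon bases of *Keap1*, and whether reads were assigned by strand is not given in the sources used here.

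*Nqo1* (chr8:107388225-107403206, minus strand), the quinone reductase often read as the leading NRF2 target, gave the largest difference of the 9. Its levels were 3.99, 3.73 and 3.55 FPKM in DMSO and 4.08, 3.77 and 4.11 in EpA, from 227 to 270 reads. They were 1.74, 1.24 and 1.59 FPKM in fatostatin and 1.94, 1.70 and 1.51 in EpA+fatostatin, from 77 to 128 reads. Every library without fatostatin lay above every library with it, and within each of these pairs of groups the libraries overlapped. The means were 3.76 ± 0.22 FPKM in DMSO, 3.98 ± 0.19 in EpA, 1.52 ± 0.255 in fatostatin and 1.72 ± 0.216 in EpA+fatostatin (SD, n = 3 each). *Nqo1* fell to 0.418 of the DMSO level with fatostatin (log2 difference -1.26, SE 0.116, 95% interval -1.51 to -1.01, limma adjusted p = 2.5e-05). When fatostatin was added to EpA it fell to 0.443 of the EpA level (-1.17, SE 0.116, 95% interval -1.43 to -0.92, limma adjusted p = 4.03e-05). EpA gave a difference of 0.08 without fatostatin (limma adjusted p = 0.661) and 0.17 with it (limma adjusted p = 0.321).

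*Hmox1* (chr8:75093621-75100589, plus strand), heme oxygenase 1, was at 3.26, 2.81 and 2.72 FPKM in DMSO and 3.56, 3.14 and 3.68 in EpA. It was at 2.54, 2.68 and 2.45 FPKM in fatostatin and 3.72, 3.34 and 3.05 in EpA+fatostatin, from 174 to 277 reads over all libraries. All EpA+fatostatin libraries were above all fatostatin libraries, whereas the EpA and DMSO libraries overlapped. *Hmox1* rose 1.30-fold when EpA was added to fatostatin (log2 difference 0.38, SE 0.0903, limma adjusted p = 0.00789). Its difference with EpA alone was 0.23 (SE 0.0903, limma adjusted p = 0.0786), which passed 0.05 without DMSO replicate 1 (limma adjusted p = 0.0334) or EpA replicate 2 (limma adjusted p = 0.0450). Fatostatin gave -0.19 alone (limma adjusted p = 0.216) and -0.04 on top of EpA (limma adjusted p = 0.829). Macrophages also express *Hmox1* strongly. The cultures started from naive CD4+ T cells isolated with a selection kit, and their purity is not given in the sources used here. The summed level of the 6 macrophage and monocyte markers was 1.21 to 1.36 FPKM in DMSO, 1.24 to 1.75 in EpA, 1.52 to 2.38 in fatostatin and 1.85 to 2.89 in EpA+fatostatin. Most of that sum was *Cd68* (1.06 to 2.33 FPKM). The part of macrophages in the *Hmox1* result was not tested.

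**Figure D2:**
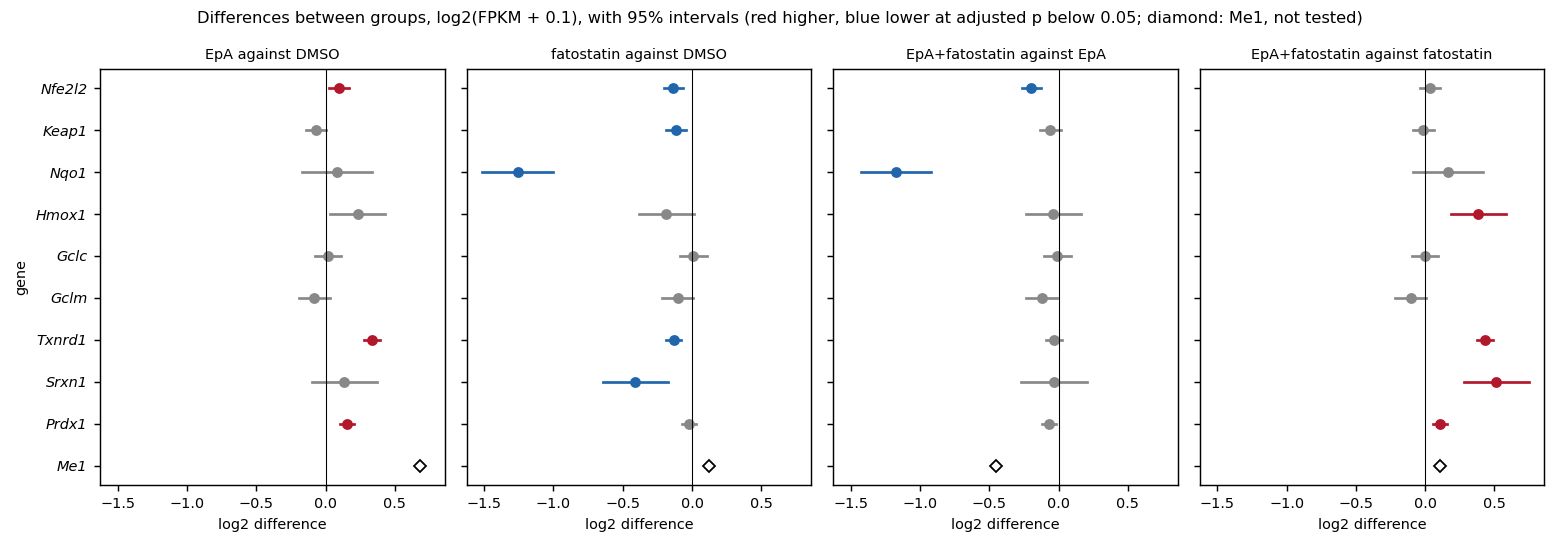
Log2 differences with 95% intervals from limma for the 9 tested genes in the 4 comparisons (red called higher, blue called lower, grey not called), with *Me1* as an open diamond without a test; the line at 0 marks no difference. *Nqo1* stands at -1.26 and -1.17 in the 2 comparisons that add fatostatin, *Txnrd1* at 0.33 and 0.43 in those that add EpA, and *Gclc* within about 0.1 of 0 in all 4.

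The 2 genes of glutathione synthesis did not pass the test in any of these comparisons. *Gclc* (chr9:77754535-77794485, plus strand), the catalytic subunit of glutamate-cysteine ligase, which makes the rate-limiting step, was at 12.9, 11.9 and 11.6 FPKM in DMSO and 12.4, 12.7 and 11.7 in EpA. It was at 12.2, 11.8 and 12.5 FPKM in fatostatin and 12.02, 12.3 and 12.3 in EpA+fatostatin. All groups overlapped, and the 95% intervals of its log2 difference were -0.08 to 0.11 for EpA, -0.09 to 0.10 for fatostatin, -0.10 to 0.09 for fatostatin on top of EpA and -0.09 to 0.10 for EpA on top of fatostatin.

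*Gclm* (chr3:122245557-122270732, plus strand), the modifier subunit of the same enzyme, was at 8.75, 8.46 and 9.08 FPKM in DMSO and 8.31, 8.18 and 8.30 in EpA. It was at 8.44, 7.53 and 8.52 FPKM in fatostatin and 7.32, 8.002 and 7.45 in EpA+fatostatin. Its means were highest in DMSO and lowest in EpA+fatostatin, and the only neighbours in that order without overlap were DMSO and EpA. The log2 differences were -0.08 for EpA (limma adjusted p = 0.269), -0.10 for fatostatin (limma adjusted p = 0.228), -0.12 for fatostatin on top of EpA (limma adjusted p = 0.135) and -0.10 for EpA on top of fatostatin (limma adjusted p = 0.158). The last passed 0.05 without fatostatin replicate 2 (limma adjusted p = 0.025). Genes on the opposite and on the same strand share 4.71% and 3.88% of its exon bases.

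Of the 3 genes of the thioredoxin and peroxiredoxin system, 2 rose with EpA alone and all 3 rose when EpA was added to fatostatin, beside 14.3% and 16.2% of all genes called higher. *Txnrd1* (chr10:82833951-82897712, plus strand), the cytosolic reductase that recycles thioredoxin with NADPH, was at 24.9, 25.3 and 25.7 FPKM in DMSO and 32.3, 31.9 and 31.6 in EpA. It was at 24.1, 22.6 and 22.6 FPKM in fatostatin and 31.4, 31.2 and 30.9 in EpA+fatostatin. No 2 groups overlapped, and the order of means was EpA (31.9 ± 0.333 FPKM), EpA+fatostatin (31.2 ± 0.236), DMSO (25.3 ± 0.43) and fatostatin (23.1 ± 0.85; SD, n = 3 each). *Txnrd1* rose 1.26-fold with EpA (log2 difference 0.33, SE 0.0261, limma adjusted p = 4.21e-06) and 1.35-fold when EpA was added to fatostatin (0.43, SE 0.0261, limma adjusted p = 5.04e-07). It fell with fatostatin alone (-0.13, SE 0.0261, limma adjusted p = 0.00543), and on top of EpA the difference was -0.03 (95% interval -0.09 to 0.02, limma adjusted p = 0.434).

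*Prdx1* (chr4:116685544-116700822, plus strand), a peroxiredoxin that removes hydrogen peroxide and the most highly expressed member per exon length, was at 154.8, 151.3 and 149.2 FPKM in DMSO and 168.9, 168.5 and 170.4 in EpA. It was at 146.5, 150.7 and 151.9 FPKM in fatostatin and 155.9, 165.0 and 163.0 in EpA+fatostatin. The libraries with EpA were all above those without it. *Prdx1* rose 1.12-fold with EpA (log2 difference 0.16, SE 0.0234, limma adjusted p = 0.00048) and 1.08-fold when EpA was added to fatostatin (0.11, SE 0.0234, limma adjusted p = 0.00503). Fatostatin gave -0.02 alone (limma adjusted p = 0.657) and -0.07 on top of EpA (limma adjusted p = 0.0674), the latter with no overlap and past 0.05 in 4 alternatives, among them the one without EpA+fatostatin replicate 2 (limma adjusted p = 0.0464).

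*Srxn1* (chr2:152105516-152111376, plus strand), sulfiredoxin, which reactivates over-oxidised peroxiredoxins, was at 1.68, 1.85 and 1.58 FPKM in DMSO and 1.72, 1.90 and 2.03 in EpA. It was at 1.29, 1.07 and 1.43 FPKM in fatostatin and 1.75, 1.98 and 1.77 in EpA+fatostatin, from 120 to 242 reads. The fatostatin libraries were lower than all others, which overlapped. *Srxn1* fell to 0.753 of the DMSO level with fatostatin (log2 difference -0.41, SE 0.107, limma adjusted p = 0.0255), a call lost in 5 of 22 alternatives with adjusted p up to 0.0887. It rose 1.43-fold when EpA was added to fatostatin (0.51, SE 0.107, limma adjusted p = 0.00387). The difference was 0.14 for EpA alone (limma adjusted p = 0.395) and -0.03 for fatostatin on top of EpA (limma adjusted p = 0.88).

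Whether EpA acted differently with and without fatostatin was tested as the difference of its 2 effects. By limma, 0 of the 9 members passed an adjusted p of 0.05, with 2 of 9 at an unadjusted p under 0.05, and limma with voom weights on the recovered reads also called 0. The 2 were *Txnrd1* (log2 difference of effects 0.10, 95% interval 0.02 to 0.18, limma adjusted p = 0.535) and *Srxn1* (0.38, 95% interval 0.04 to 0.71, limma adjusted p = 0.573). Of all 13733 genes, 6 passed in this test (0.0437%). The exact permutation test of 3 against 3 libraries cannot go below a two-sided p of 0.1, so single genes were tested only in the fit across all genes.

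*Me1* (chr9:86581371-86695953, minus strand), the cytosolic malic enzyme that makes NADPH from malate and serves both redox balance and fatty acid synthesis, had the lowest levels of the 10. It was at 0.227, 0.184 and 0.149 FPKM in DMSO (25 to 32 reads per library) and 0.353, 0.339 and 0.381 in EpA (52 to 62 reads). It was at 0.246, 0.111 and 0.308 FPKM in fatostatin (17 to 48 reads) and 0.391, 0.0813 and 0.317 in EpA+fatostatin (13 to 64 reads). All EpA libraries were above all DMSO libraries, whereas the groups with fatostatin overlapped every other group except that fatostatin lay below EpA. The FPKM means were 0.187 in DMSO and 0.357 in EpA. The mean log2 difference of EpA from DMSO was 0.68, or 1.60-fold on the scale of FPKM + 0.1. At these low levels it depended on the setting, with 0.19 at a pseudocount of 1 FPKM and up to 0.96 among the other alternatives.

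The lower *Me1* mean when fatostatin was added to EpA came from 1 library. The log2 difference was -0.45 over all libraries and -0.01 without EpA+fatostatin replicate 2, which held 13 reads. Across the settings other than leaving out 1 library, the difference ranged from -0.71 to -0.11. Of the other 2 EpA+fatostatin libraries, the one at 0.391 FPKM was above and the one at 0.317 FPKM below all EpA libraries (0.339 to 0.381). Fatostatin alone differed from DMSO by 0.12 on the log2 scale, a value that ranged from -0.08 without fatostatin replicate 3 to 0.40 without fatostatin replicate 2. EpA on top of fatostatin gave 0.11, which ranged from -0.17 without EpA+fatostatin replicate 1 to 0.55 without EpA+fatostatin replicate 2, and was also below 0 without fatostatin replicate 2 (-0.17) or EpA+fatostatin replicate 3 (-0.05). Neither value had a settled direction. The description of *Me1* as falling when fatostatin is added thus rests on a single library.

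Because *Me1* is also a known target of SREBP1, 12 genes of SREBP1 and fatty acid synthesis were set beside it. With EpA 3 of 12 rose and 3 fell, beside 27.4% of all genes called, and for EpA on top of fatostatin 4 rose and 2 fell, beside 29.5%. With fatostatin 0 rose and 6 fell, beside 6.31% of all genes called lower, and for fatostatin on top of EpA 0 rose and 5 fell, beside 6.79%. *Srebf1*, which encodes SREBP1, had means of 37.3 FPKM in DMSO, 30.9 in EpA, 34.2 in fatostatin and 29.1 in EpA+fatostatin, and it fell with EpA (log2 difference -0.27, SE 0.0231, limma adjusted p = 7.63e-06) and with fatostatin (-0.12, SE 0.0231, limma adjusted p = 0.00391). *Scd1*, a fatty acid desaturase, had means of 243.2, 225.8, 171.8 and 170.9 FPKM in the same order and fell with EpA (-0.11, SE 0.0185, limma adjusted p = 0.00129) and with fatostatin (-0.50, SE 0.0185, limma adjusted p = 1.9e-08). *Acly*, which makes cytosolic acetyl-CoA from citrate, had means of 70.5, 78.0, 66.1 and 74.6 FPKM and rose with EpA (0.15, SE 0.025, limma adjusted p = 0.00127) and fell with fatostatin (-0.09, SE 0.025, limma adjusted p = 0.0286). *Fasn*, fatty acid synthase, had means of 35.3, 38.7, 34.6 and 39.7 FPKM and rose with EpA (0.13, SE 0.0175, limma adjusted p = 0.0002), with a difference of -0.03 for fatostatin (limma adjusted p = 0.311). For fatostatin on top of EpA, *Scd1* (-0.40, limma adjusted p = 1.07e-07) and *Srebf1* (-0.09, limma adjusted p = 0.0228) fell, and the difference was -0.06 for *Acly* (limma adjusted p = 0.112) and 0.04 for *Fasn* (limma adjusted p = 0.212). For EpA on top of fatostatin, *Acly* (0.17, limma adjusted p = 0.000324) and *Fasn* (0.20, limma adjusted p = 8.45e-06) rose and *Srebf1* fell (-0.24, limma adjusted p = 1.91e-05), whereas the *Scd1* groups overlapped (-0.01, limma adjusted p = 0.808).

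**Figure D3:**
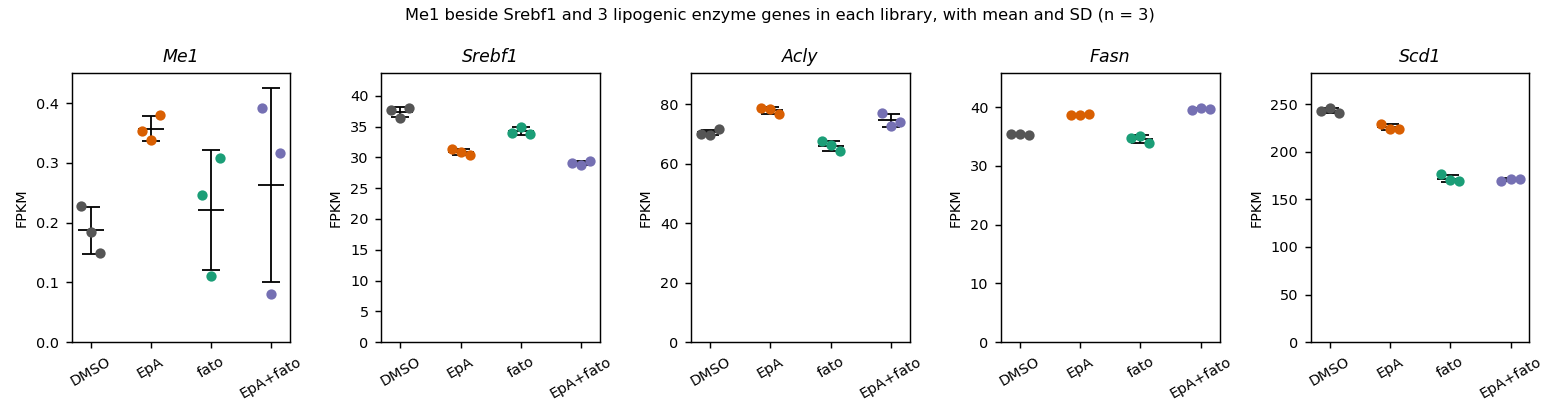
FPKM of *Me1*, *Srebf1*, *Acly*, *Fasn* and *Scd1* in the 12 libraries by treatment group (fato, fatostatin), with 1 panel per gene; points are libraries and bars give the mean and SD of 3. The *Scd1* libraries with fatostatin lie between 169.2 and 176.2 FPKM and those without it between 223.6 and 245.6, whereas the *Me1* groups with fatostatin spread across the range of the others.

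A list of 88 other genes of NRF2 control and antioxidant defence was counted in the same fit, of which 71 passed the filter and 17 were below it, among them *Slc7a11*, *Aldh3a1*, *Gpx2* and *Gsta1*. With EpA 17 of 71 rose and 9 fell (36.6%, beside 27.4% of all genes), and with fatostatin 7 rose and 1 fell (11.3%, beside 14%). For fatostatin on top of EpA 7 rose and 2 fell (12.7%, beside 16%), and for EpA on top of fatostatin 14 rose and 9 fell (32.4%, beside 29.5%). The median log2 difference of the 71 was 0.02, 0.01, 0.01 and 0.04 in these comparisons, close to that of all genes. In the difference of EpA's effects, 0 of 71 passed by limma, 5 were at an unadjusted p under 0.05, and voom called 0.

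By role, the counts are small and are to be read beside the shares of all genes called, which were 27.4% with EpA, 14% with fatostatin and 29.5% for EpA on top of fatostatin. The thioredoxin and peroxiredoxin genes beyond the members numbered 10, of which 4 rose and 1 fell with EpA. Of the 10 genes of NADPH supply, 3 rose and 0 fell with EpA, and 4 rose and 0 fell for EpA on top of fatostatin; the share with EpA (30%) was near that of all genes. Of the 16 genes that use glutathione, 3 rose and 3 fell with EpA, and 0 changed with fatostatin by the test. Of the 17 genes of quinone and heme detoxification, 2 rose and 4 fell with EpA, and 5 rose and 1 fell with fatostatin, in contrast to the fall of *Nqo1*. Of the 13 regulators, 3 rose and 1 fell with EpA (30.8%, also near that of all genes), and 0 passed with fatostatin alone. Of the 3 genes that remove superoxide and hydrogen peroxide, 1 rose and 0 fell with EpA, and 1 rose and 1 fell for EpA on top of fatostatin.

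**Figure D4:**
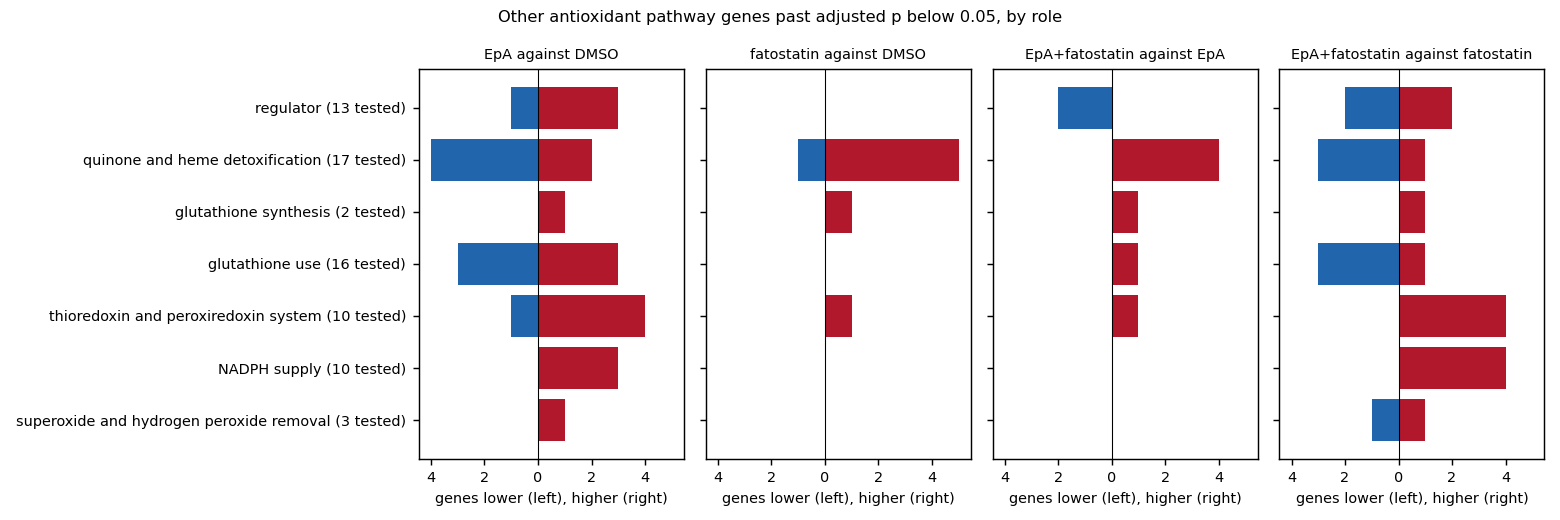
Number of genes of the 71 in the fit that were called higher or lower in each comparison, by role; bars to the right count genes called higher and bars to the left genes called lower. The EpA comparisons hold 26 and 23 called genes and the fatostatin comparisons 8 and 9.

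*Sesn2*, a stress-induced sestrin, separated all 4 groups. It was at 7.21, 7.70 and 7.40 FPKM in DMSO and 10.3, 10.01 and 9.71 in EpA. It was at 15.2, 14.2 and 14.8 FPKM in fatostatin and 17.6, 17.1 and 18.2 in EpA+fatostatin. It rose in each of the 4 comparisons, with log2 differences of 0.42 for EpA (SE 0.0376, limma adjusted p = 1.02e-05), 0.98 for fatostatin (SE 0.0376, limma adjusted p = 2.64e-08), 0.81 for fatostatin on top of EpA (limma adjusted p = 1.09e-07) and 0.26 for EpA on top of fatostatin (limma adjusted p = 0.000368).

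*Ephx1*, the microsomal epoxide hydrolase and another gene known to respond to NRF2, moved opposite to *Nqo1* with fatostatin. It was at 3.52, 4.25 and 3.60 FPKM in DMSO, 3.49, 3.44 and 3.86 in EpA, 6.09, 7.10 and 7.32 in fatostatin and 6.11, 6.36 and 6.69 in EpA+fatostatin. It rose with fatostatin alone (log2 difference 0.84, SE 0.0855, limma adjusted p = 6.12e-05) and on top of EpA (0.81, SE 0.0855, limma adjusted p = 6.52e-05). *Nqo2*, a second quinone reductase, also rose with fatostatin alone (0.70, SE 0.148, limma adjusted p = 0.00841), and it fell with EpA (-0.53, SE 0.148, limma adjusted p = 0.0211) and for EpA on top of fatostatin (-0.97, SE 0.148, limma adjusted p = 0.000497). *Slc48a1*, a heme transporter, was the gene of this role that fell with fatostatin alone (-0.19, SE 0.0322, limma adjusted p = 0.00245). *Abcc1*, of the same role, rose with EpA (0.30, limma adjusted p = 7.49e-05) and for EpA on top of fatostatin (0.40, limma adjusted p = 7.6e-06). It also rose with fatostatin alone (0.20, limma adjusted p = 0.00224). *Akr1b10*, an aldo-keto reductase, fell with EpA (-0.22, limma adjusted p = 0.00751). It rose with fatostatin alone (0.18, limma adjusted p = 0.0405) and for fatostatin on top of EpA (0.38, limma adjusted p = 0.000424).

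*Gsr*, glutathione reductase, was at 18.4, 20.1 and 19.7 FPKM in DMSO, 24.6, 22.5 and 22.3 in EpA, 17.5, 17.3 and 18.4 in fatostatin and 20.9, 22.2 and 21.7 in EpA+fatostatin. It rose with EpA (log2 difference 0.25, SE 0.046, limma adjusted p = 0.00186) and for EpA on top of fatostatin (0.28, SE 0.046, limma adjusted p = 0.000783). *Gss*, glutathione synthetase, rose instead with fatostatin (0.23, limma adjusted p = 0.0418) and for fatostatin on top of EpA (0.29, limma adjusted p = 0.0116). *Glrx*, glutaredoxin, which uses glutathione to reduce protein disulfides, was at 5.47, 4.99 and 5.59 FPKM in DMSO, 2.75, 3.31 and 2.78 in EpA, 5.60, 5.66 and 5.73 in fatostatin and 3.23, 3.19 and 2.92 in EpA+fatostatin. Both groups with EpA lay below both groups without it, and *Glrx* fell by 0.84 on the log2 scale with EpA (SE 0.0727, limma adjusted p = 8.31e-06) and by 0.84 for EpA on top of fatostatin (SE 0.0727, limma adjusted p = 6.99e-06). *Mgst2*, a membrane-bound glutathione transferase, fell by 0.43 with EpA (limma adjusted p = 0.00124) and by 0.46 for EpA on top of fatostatin (limma adjusted p = 0.000697). *Gstt1*, a glutathione transferase, rose 1.48-fold with EpA (0.56, SE 0.159, limma adjusted p = 0.0214). *Gpx1*, a glutathione peroxidase, rose by 0.13 (limma adjusted p = 0.00545) and 0.09 (limma adjusted p = 0.0267) in the 2 comparisons that add EpA.

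Of the genes that act with or on NRF2, the small MAF gene *Maff* rose with EpA (log2 difference 0.53, SE 0.117, limma adjusted p = 0.00599) and for EpA on top of fatostatin (0.45, SE 0.117, limma adjusted p = 0.0126). *Mafg*, another small MAF gene, rose by 0.13 (limma adjusted p = 0.0207) and 0.27 (limma adjusted p = 0.000198) in the same comparisons. *Trim21*, a ubiquitin ligase of antiviral and redox control, fell by 0.35 (limma adjusted p = 3.29e-05) and 0.36 (limma adjusted p = 2.43e-05). *Cul3*, the scaffold of the ligase that KEAP1 serves, fell by 0.10 for fatostatin on top of EpA (limma adjusted p = 0.0238) and by 0.12 for EpA on top of fatostatin (limma adjusted p = 0.00474). Of the enzymes that supply NADPH, *Pgd*, of the pentose phosphate pathway, rose by 0.14 with EpA (limma adjusted p = 0.00034) and 0.18 for EpA on top of fatostatin (limma adjusted p = 5.53e-05). *Idh2*, the mitochondrial isocitrate dehydrogenase, rose by 0.12 (limma adjusted p = 0.0396) and 0.19 (limma adjusted p = 0.00306). *Txnrd3*, a paralog of *Txnrd1*, rose by 0.38 (limma adjusted p = 0.0369) and 0.36 (limma adjusted p = 0.0431), and *Sod2*, the mitochondrial superoxide dismutase, by 0.20 (limma adjusted p = 0.00514) and 0.17 (limma adjusted p = 0.0116). *Prdx6*, a peroxiredoxin, fell by 0.10 with EpA (limma adjusted p = 0.00276). *Cat*, catalase, which removes hydrogen peroxide, fell by 0.14 for EpA on top of fatostatin (limma adjusted p = 0.0421).

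Across the 12 libraries, *Txnrd1* and *Prdx1* had a Pearson r of 0.865, *Nfe2l2* and *Nqo1* of 0.861, *Hmox1* and *Txnrd1* of 0.839, and *Gclm* and *Txnrd1* of -0.343, on log2(FPKM + 0.1). These are descriptions over libraries that share 4 treatments. Among genes whose mean reached 1 FPKM, those most like *Nfe2l2* were *Psmb4* (r = 0.959), *Calm2* (r = 0.959) and *Slc25a1* (r = 0.952), those most like *Hmox1* were *Rab22a* (r = 0.950), *Eftud2* (r = 0.936) and *Tdrkh* (r = 0.935), and those most like *Me1* were *Cryz* (r = 0.893), *Arhgef2* (r = 0.857) and *Gcat* (r = 0.847).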

How the data were processed

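Libraries were made with an Illumina TruSeq RNA kit. The authors used Trim Galore for trimming, HISAT2 for alignment to GRCm38 and featureCounts for counts per gene, and the deposited values are FPKM. The strand setting and the treatment of multimapped reads are not given in the sources used here. The table held 32352 lines, of which 301 repeated another line with the same values. Groups followed the treatment labels. From exon lengths, 98.4 to 98.5% of values came out as whole reads (tolerance 0.02 reads, in proportion above 1000 reads). More genes had 2 reads than 1, so both mates may be counted. Recovered reads served for depth and for voom. One read on 1 kb was worth 0.0225 to 0.0273 FPKM.

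log2(FPKM + 0.1) was fitted, for genes whose mean reached 0.1 FPKM, with limma 3.58.1 (R 4.3.3) over all 4 groups (lmFit, eBayes with trend, two-sided, Benjamini-Hochberg over all tested genes). The study's own test used counts; limma was used because the values are FPKM. Where a count of calls is given, the threshold was an adjusted p of 0.05, and separately 1.5-fold. The fit was tested on simulated data.

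The members and lists were chosen with earlier results of these data known. All 10 members were named. Of the other pathway genes, up to 2 in each direction, role and comparison were eligible, with the largest change among those called at a mean of at least 1 FPKM. *Srebf1*, *Fasn*, *Acly* and *Scd1* were named beside *Me1*. For *Me1*, *Hmox1* and *Nfe2l2*, the 3 genes of highest Pearson r were named. The alternatives were other pseudocounts and filters, TPM and median ratio scaling, no trend, only the groups compared, the replicate number as a block, voom, and each library left out.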

Additional observations from a re-analysis of the deposited data

How the results depend on the processing

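The 45 tested values of members were recomputed under 22 alternatives, 12 of which left out 1 library. Of 981 values, 915 kept direction and side of the threshold, 34 lost the call, 7 gained it and 25 changed sign, all of the latter below the threshold and at most 0.0452 in size. Fatostatin against DMSO was the least stable count: 5 members called became 3 with only the groups compared, and 2 to 5 with 1 library left out (2 without DMSO replicate 2 or fatostatin replicate 1, 3 without fatostatin replicate 2). With 1 library left out, log2 differences that crossed 0 ranged as follows. *Gclc* ranged from -0.0126 to 0.0637 for EpA, -0.0215 to 0.0548 for fatostatin, -0.0425 to 0.0195 for fatostatin on top of EpA, -0.0197 to 0.0185 for EpA on top of fatostatin and -0.0629 to 0.0134 for the difference of effects. *Hmox1* (-0.110 to 0.0292) and *Srxn1* (-0.0923 to 0.0198) did so for fatostatin on top of EpA, and *Keap1* (-0.0343 to 0.00534) for EpA on top of fatostatin. *Nqo1* (-0.0452 to 0.182) and *Gclm* (-0.0766 to 0.0115) did so for the difference of effects. The untested *Me1* values crossed 0 for fatostatin (-0.0789 to 0.397) and for EpA on top of fatostatin (-0.173 to 0.547). *Gclc* also crossed 0 with TPM scaling (0.000306 for fatostatin on top of EpA), median ratio scaling (-0.0123) and voom (-0.00146, both for EpA on top of fatostatin). The cause was not tested.

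The labels number replicates 1 to 3 in each group but do not say that a number marks a shared mouse or day. Deviations of same-numbered libraries from their group means correlated at -0.0472 to 0.0744, and those of other pairs at -0.0859 to 0.0492, so the numbers were not read as pairs. With the replicate block, 2 members were called for EpA, 4 for fatostatin, 2 for fatostatin on top of EpA, 4 for EpA on top of fatostatin and 0 for the difference. *Nfe2l2* with EpA (limma adjusted p = 0.0657) and *Keap1* with fatostatin (limma adjusted p = 0.0611) lost their calls. Depth limits *Me1* most, at 13 to 64 reads per library.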
